A study of Mus musculus with 24 samples.

Results

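The fat samples described here are 2 of the 8 epididymal white adipose tissue (EWAT) samples of the study, S2 and S4, chosen by their measured Spink8 level: their highest Spink8 probe lay above 8 on the log2 scale. Spink8, the gene they were selected on, was 14.21 in S2 and 13.89 in S4. They were set against the 4 EWAT samples in which Spink8 and Cldn2 both lay below 8, which were C1, C2, C4 and S1 and are called the reference samples. The other two EWAT samples, C3 and S3, had Cldn2 values of 9.80 and 9.71 and were in neither group. All mice were males of the C57BL/6J strain, injected intraperitoneally with antisense oligonucleotides (gapmers) 48 hours before. C1, C2, C3 and C4 received a control gapmer, and S1, S2, S3 and S4 a gapmer specific for SOX6, a transcription factor of the SOX family. The series holds 16 samples on 24 arrays, of which 8 samples on 14 arrays are liver. S2 and S4 each had 1 array, and C1 and S1 had repeat arrays that were averaged. The labels give no age.

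S2 and S4 both received the SOX6 gapmer, so their ductal signal and the treatment cannot be told apart from these samples alone. S1 received the same gapmer and lies in the reference group, so treated animals occur on both sides. The groups were formed from measured values of the same arrays. The differences are therefore descriptions, given without a test, and nothing in the labels states how the samples were dissected.

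The epididymis is a single long coiled tube that joins the testis to the deferent duct (vas deferens) and lies against the epididymal fat pad. Its lining is a tall epithelium of principal, basal and clear cells that secretes beta-defensins, protease inhibitors and lipocalins into the lumen in a segment-specific way and recovers fluid from it. A sheath of smooth muscle surrounds the tube and is thickest at its tail end and in the deferent duct, where it contracts under sympathetic nerves.

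Each gene was represented by its brightest detected probe, and a probe counted as detected where its signal exceeded the negative controls at a detection p-value under 0.05. A gap is the lowest value of one group minus the highest value of the other, so that a gap over 1 means every sample of one group lay at least a doubling above every sample of the other. Of 11759 genes tested, 265 (2.25%) were higher in S2 and S4 with a gap over 1, and 99 of them had a gap over 2. No gene (0%) was lower with a gap over 1. With any gap at all, 1585 genes (13.5%) were higher and 1696 (14.4%) were lower. Higher genes made up 48.3% of these under the authors' values and 32.4% when arrays were only set to a common 75th percentile. The median difference over all genes was -0.04, and the median standard deviation over the reference samples was 0.18 (n = 4). Repeat arrays of C1 gave a standard deviation of 0.19 for a single array, and 69 genes differed between them by over 1.

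The genes farthest apart were secreted proteins of the male tract. Spink8, a Kazal-type serine protease inhibitor of the epididymis, was 4.72 in C1, 4.19 in C2, 4.77 in C4 and 4.57 in S1, against 14.21 and 13.89 in S2 and S4, a gap of 9.12. Defb42, a beta-defensin of the epididymis, was 13.04 in S2 and 12.75 in S4 and lay between 3.49 and 3.84 in the reference samples, with a gap of 8.91. Serpina1f, a serpin of the mouse epididymis, was 13.46 and 12.87 against 4.24 to 4.63, with a gap of 8.24. In each of these genes S2 was the higher of the pair and the reference samples lay near the detection limit, which was 4.55 to 4.70 on the EWAT arrays. Spink8 was detected on 3 of the 6 reference arrays, and Defb42 and Serpina1f on none. The level was at least 299-fold higher for Defb42 and at least 358-fold higher for Serpina1f, and no fold is given for Spink8, whose reference values sat at the detection limit and which chose the samples. A bound is the mean of S2 and S4 over the higher of the gene's own value and the lowest detected value of each reference array. The values hold background in both groups, so folds of dim genes are understated.

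**Figure D1:**
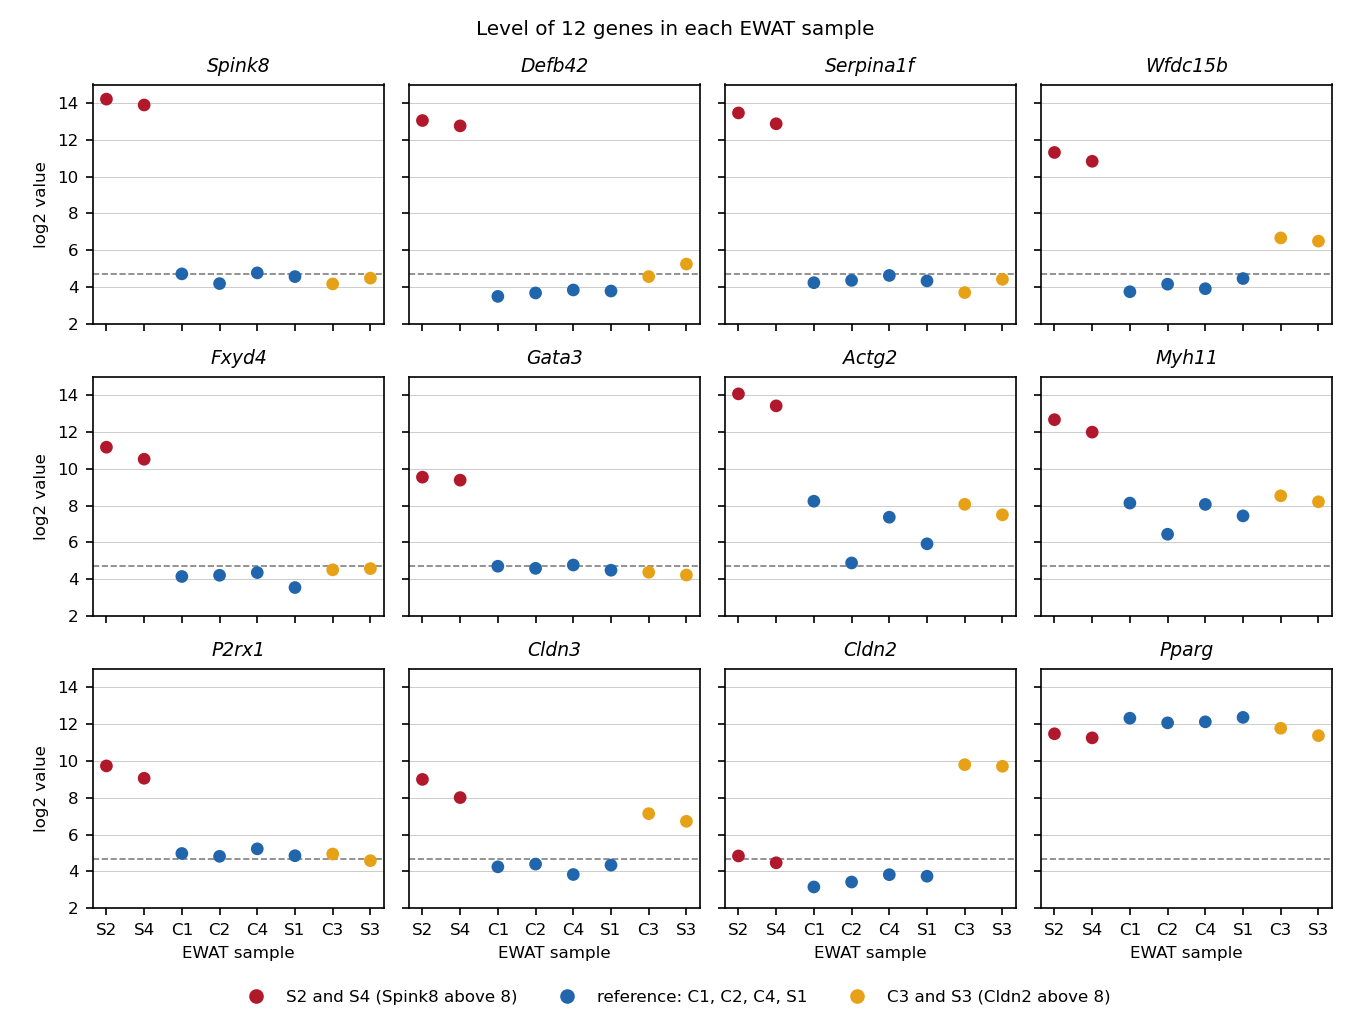
Level of 12 genes in each of the 8 EWAT samples, as log2 values of the authors' normalized table (vertical axis) by sample (horizontal axis). Red points are S2 and S4, blue points the reference samples, orange points C3 and S3, and the dashed line marks the highest of the arrays' lowest detected values, 4.70; Spink8 lies at 14.21 and 13.89 in S2 and S4 and below 4.80 elsewhere.

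The beta-defensins, small cationic peptides that coat sperm and act against microbes, were among the 9 gene families examined. Of 41 family members by symbol, 11 were tested and 30 were detected in fewer than 2 samples. The highest value of these 30 was 6.77 in any EWAT sample and 4.79 in S2 or S4. Of the 11, 6 were higher with a gap over 1, against 2.25% of all genes, and the median difference was 2.27 against -0.04. Defb2, Defb28 and Defb43 passed the detection filter only through S2 and S4, and could therefore enter only by being high there. Defb42, Defb30 and Defb48 were detected in 3 EWAT samples, S2 and S4 among them, so they too needed S2 or S4 to pass. The count of 6 is therefore set by the filter and the median partly so, and they say nothing about the family. Defb43 was 11.48 in S2 and 10.69 in S4 and 2.98 to 4.10 in the reference samples, at least 85.1-fold higher. Defb30 was 9.59 and 8.92 against 3.92 to 4.16, at least 23.96-fold higher. The remaining called members were Defb48 with a gap of 3.42, Defb2 with 2.35 and Defb28 with 1.38, all of them undetected on the reference arrays. Defb29 ran the other way, at 3.64 and 4.01 in S2 and S4 and at 8.15 and 7.79 in C3 and S3. Defb36 was 4.14 and 4.17 in S2 and S4 and 7.08 and 6.99 in C3 and S3. Defb42 and Defb48, high in S2 and S4, were 5.25 and 5.36 in S3.

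Some of the called defensins are neighbours on chromosome 14. In the RefSeq gene order of GRCm38.p6 the run is Wdfy2, Defb48, Defb47, Defb43, Defb30, Defb42 and Ctsb. The 4 tested defensins of the run, Defb48, Defb43, Defb30 and Defb42, had gaps of 3.42, 6.59, 4.76 and 8.91, whereas the flanking Wdfy2 overlapped between the groups and Ctsb had a gap of -0.08. Defb47 was not tested. The promoters of the 3 adjacent genes are shown because these genes moved together. The sequences are RefSeq's (GRCm38.p6), 5′ to 3′ on the gene's strand, at chr14:63046871-63046990 on the plus strand for Defb42, chr14:63037847-63037966 on the minus strand for Defb30 and chr14:63011651-63011770 on the plus strand for Defb43. Capitals mark the core element of the androgen receptor motif, searched as TGTTCT or AGAACA, which covers both strands.
Defb42: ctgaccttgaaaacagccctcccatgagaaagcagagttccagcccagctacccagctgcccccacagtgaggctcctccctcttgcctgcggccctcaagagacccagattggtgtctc
Defb30: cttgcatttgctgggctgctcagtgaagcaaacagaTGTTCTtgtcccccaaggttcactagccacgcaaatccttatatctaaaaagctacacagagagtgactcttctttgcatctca
Defb43: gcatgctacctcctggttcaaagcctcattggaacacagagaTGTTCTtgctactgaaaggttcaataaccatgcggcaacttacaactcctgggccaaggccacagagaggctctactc

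The element lay 84 bases before the start of Defb30 and 78 bases before that of Defb43, and these letters were not in the 250 bases before Defb42. The search covered 250 bases before each start, of which the printed sequences are the part nearest the start. In that window the element occurred in 3 of the 5 called defensins with a promoter entry and in 16.1% of all 32851 promoters. A match describes the letters in the window and is no evidence of binding.

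Other secreted inhibitors and enzymes of the male tract were also higher. Wfdc15b, a protease inhibitor with a WAP domain, was 11.31 and 10.83 in S2 and S4, 3.75 to 4.46 in the reference samples and 6.67 and 6.49 in C3 and S3. Of 8 WAP domain genes tested it and Wfdc10 (gap 1.80) were called. Over all genes 2.25% were called. Among Kazal inhibitors other than Spink8, Spink11 had a gap of 2.08 and Spink4 one of 1.003, and both passed the filter only through S2 and S4, so that their number says nothing about the family. Of 6 ribonuclease A family genes tested, Rnase12 (gap 1.98) and Rnase1 (gap 1.40) were called, and both passed the filter in the same way, as did Serpina1f, Ckm, Hoxd10 and Hoxa11. No tested cystatin (4) or ADAM gene (11) had a gap over 1, and none of the 3 cysteine-rich secretory proteins and none of the 6 PATE genes was detected in enough samples to be tested.

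The segment was examined with 3 lists of genes known to be enriched along the mouse duct. Of 12 genes of the initial segment and proximal head (caput), 4 were tested and 1, Defb42, was called. Lcn9, Rnase9, Rnase10, Ros1, Cst12, Spag11b and Etv4 were not detected in S2 or S4, with no value above 4.47 there. Of 17 caput genes, 9 were tested and Spink8, Serpina1f and Defb30 were called, of which Spink8 was fixed by the selection. Over all genes 2.25% were called. Serpina1f passed the detection filter only through S2 and S4. Defb42, Defb30 and Spink8 were detected in 3 EWAT samples, S2 and S4 among them, and so needed S2 or S4 to pass. The called counts of the initial segment and caput lists are therefore set by the filter and say nothing about the segment. Lcn5, Gpx5, Lcn10, Lcn6, Ly6g5b, Spag11a, Defb18 and Wfdc8 were detected in fewer than 2 samples and not tested, with no value above 4.81 in S2 or S4. These include Gpx5, a secreted glutathione peroxidase, and Lcn5, a retinoid-binding lipocalin, both abundant secretory products of the caput. Wfdc8 was detected in S4 alone, at 4.81, and Gpx5, Lcn6 and Defb18 each in 1 sample other than S2 and S4. Median differences were 0.24 in the first list and 0.28 in the caput list.

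Genes of the body, tail and deferent duct gave a mixed picture as well. Of 10 such genes, 3 were tested and all 3 were called, against 2.25% of all genes. Plac8, a small cysteine-rich protein, was 12.98 and 12.58 in S2 and S4 and 5.86 to 6.99 in the reference samples. Cd52, a surface glycopeptide that the distal duct sheds onto sperm and that lymphocytes also carry, was 14.17 and 13.78 against 7.89 to 8.96. Aqp9, a channel for water and small solutes, was 9.31 and 8.27 against 4.82 to 5.41, and 7.71 and 8.03 in C3 and S3. A second detected Aqp9 probe had a gap of 0. Of 4 lymphocyte genes tested none was called and the median difference was 0.21. Crisp4, Defb22 and Spint4 were not detected, and Crisp1 and Akr1b7 had no named probe. Ces5a was detected in S4 alone, at 4.80, and Pate4 in only 1 of S2 and S4, at 4.64 and 4.62, so neither was tested. Each list thus held both genes at high levels and genes near background, and these values do not settle a segment.

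Wolffian duct regulators, which shape the embryonic tube that forms the epididymis and deferent duct, were listed together with steroid response genes. Of 10 members, 4 were tested and 2 were called, Gata3 and Pax8. The share called over all genes was 2.25%. Gata3 was 9.55 in S2 and 9.38 in S4 and 4.49 to 4.77 in the reference samples, with 4.38 and 4.23 in C3 and S3. Pax8 was 6.69 and 5.99 against 3.52 to 4.08, with 5.61 and 5.32 in C3 and S3. Gata3 was thus high in S2 and S4 alone among the 8 samples, whereas Pax8 was raised in both pairs. A second detected Pax8 probe had a gap of 0. Lhx1 was 3.20 and 3.52 in S2 and S4 and 6.04 and 6.40 in C3 and S3, Esr1, the estrogen receptor, overlapped, and Pax2 and Emx2 were not detected. Of the posterior Hox genes, which set position along the body axis and the tract, 8 were tested and Hoxd10 was called, at 7.52 and 6.77 against 4.31 to 4.53. Hoxd9 had a gap of 0.80. Hoxa11, at 6.33 in S2 and 4.75 in S4, had a gap of 0.37.

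The smooth muscle list was higher nearly throughout. Of 23 members, 21 were tested, 18 were called and 20 had a gap above 0, against 2.25% and 13.5% of all genes. The median difference was 2.66. Actg2, the gamma actin of visceral smooth muscle, was 14.07 in S2 and 13.42 in S4 and 8.24, 4.89, 7.37 and 5.92 in C1, C2, C4 and S1. Myh11, the smooth muscle myosin heavy chain, was 12.67 and 11.99 against 6.44 to 8.14. Reference samples held detectable smooth muscle transcripts, as C3 and S3 did (Actg2 8.07 and 7.50), and the samples did not overlap. Tpm2, a tropomyosin, had a gap of 3.55, Myl9, a myosin light chain, 2.76, Des, the intermediate filament desmin, 2.65, and Acta2, the alpha actin also found in vessels, 1.79. P2rx1, the ATP-gated channel through which nerves contract the deferent duct, was 9.73 and 9.06 in S2 and S4 and 4.82 to 5.23 in the reference samples, with 4.95 and 4.59 in C3 and S3. Of the 21 tested, 2 (Cnn1 and Chrm3) passed the filter only through S2 and S4. The tested members without a gap over 1 were Synpo2, which overlapped, Kcnmb1 with 0.54 and Chrm3 with 0.64.

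The promoter of Myl9 is shown because it held a match to the CArG box, the element bound by serum response factor. Of the 14 called smooth muscle genes with a promoter entry, it was the only one with a match in the 250 bases searched. A match occurred in 1.47% of all promoters over the same 250 bases. Boxes outside that window were not searched, so the other genes are not shown to lack one. The sequence is RefSeq's (GRCm38.p6), chr2:156775284-156775463 on the plus strand, with the box in capitals 161 bases before the start.
Myl9: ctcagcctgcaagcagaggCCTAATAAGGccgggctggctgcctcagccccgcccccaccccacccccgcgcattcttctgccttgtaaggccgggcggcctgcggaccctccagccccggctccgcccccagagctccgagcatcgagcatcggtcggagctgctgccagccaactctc

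Several genes best known from striated muscle were also higher. Tnnc2, the calcium-binding troponin of fast skeletal muscle, was 11.37 in S2 and 9.93 in S4 and 4.28 to 4.72 in the reference samples. Ckm, the muscle creatine kinase, had a gap of 2.78, and Acta1, the skeletal alpha actin, was 12.22 and 11.46 against 8.28 to 8.81. The rest of the skeletal muscle list did not follow. Mylpf, the fast myosin regulatory light chain, had a gap of -0.16, Actn3 and Tnni2 overlapped, and Myh4, Tnnt3 and Mybpc2 were not detected in S2 or S4. Of 8 members 5 were tested and 2 were called, against 2.25% of all genes, and the list's median difference was 0.25.

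Epithelial genes were higher as well. Of 22 genes of simple epithelium, 20 were tested, 11 were called and 18 had a gap above 0, against 2.25% and 13.5% of all genes. The list's median difference was 2.07. Cldn4 and Grhl2 passed the filter only through S2 and S4. Cldn3, a tight junction protein, was 8.999 in S2 and 8.01 in S4, 3.83 to 4.40 in the reference samples and 7.14 and 6.72 in C3 and S3. Rab25, a trafficking GTPase of epithelia, was 7.91 and 7.37 against 3.17 to 4.02. Cdh1, the epithelial cadherin, had a gap of 2.50, Spint1, a membrane protease inhibitor, 2.22 and Ap1m2, an epithelial sorting adaptor, 2.23. These are the brightest probes. A second detected probe of Cdh1 had a gap of 0 and one of Spint1 0.32, and other detected probes of Ap1m2 had 1.52, 1.34 and 0.76. Cldn4, a second tight junction protein, was 8.27 and 6.69 in S2 and S4 and 4.34 and 4.48 in C3 and S3. Among keratins, Krt8 was 10.17 and 9.08 against 5.62 to 7.69, whereas Krt7 overlapped. The highest reference value of Krt8 was in C2, which also had the highest median of the mesothelial list, 8.16 against 6.10 in S2 and 6.38 in S4. No mesothelial gene had a gap in either direction.

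Genes of other cell classes of the duct differed less. Of 6 basal cell genes, 4 were tested and none had a gap over 1, but 3 had a gap above 0, against 13.5% of all genes, and the median difference was 0.70. Col17a1 (gap 0.38) and Krt15 (gap 0.26) were near the detection limit, at 4.79 and 4.75 in S4, and Col17a1 passed the filter only through S2 and S4. The third was Trp63, with a gap of 0.08. Krt14 overlapped, at 6.40 and 6.14 in S2 and S4 and 8.07 in C2. Trp63, the basal cell regulator, was 6.90 and 6.04 in S2 and S4 and up to 5.96 in C2. The 2 clear cell proton pump genes tested both overlapped, and the other 5 of that list were not detected. Of 13 ion and water transport genes tested, Car14, a carbonic anhydrase, was called with a gap of 1.06, against 2.25% of all genes. The median difference was 0.08. Fxyd4, a modulator of the sodium pump that was not in the list, was 11.17 and 10.52 against 3.55 to 4.36, at least 71.9-fold higher. In bulk tissue, fewer cells of a type and less RNA per cell cannot be told apart.

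**Figure D2:**
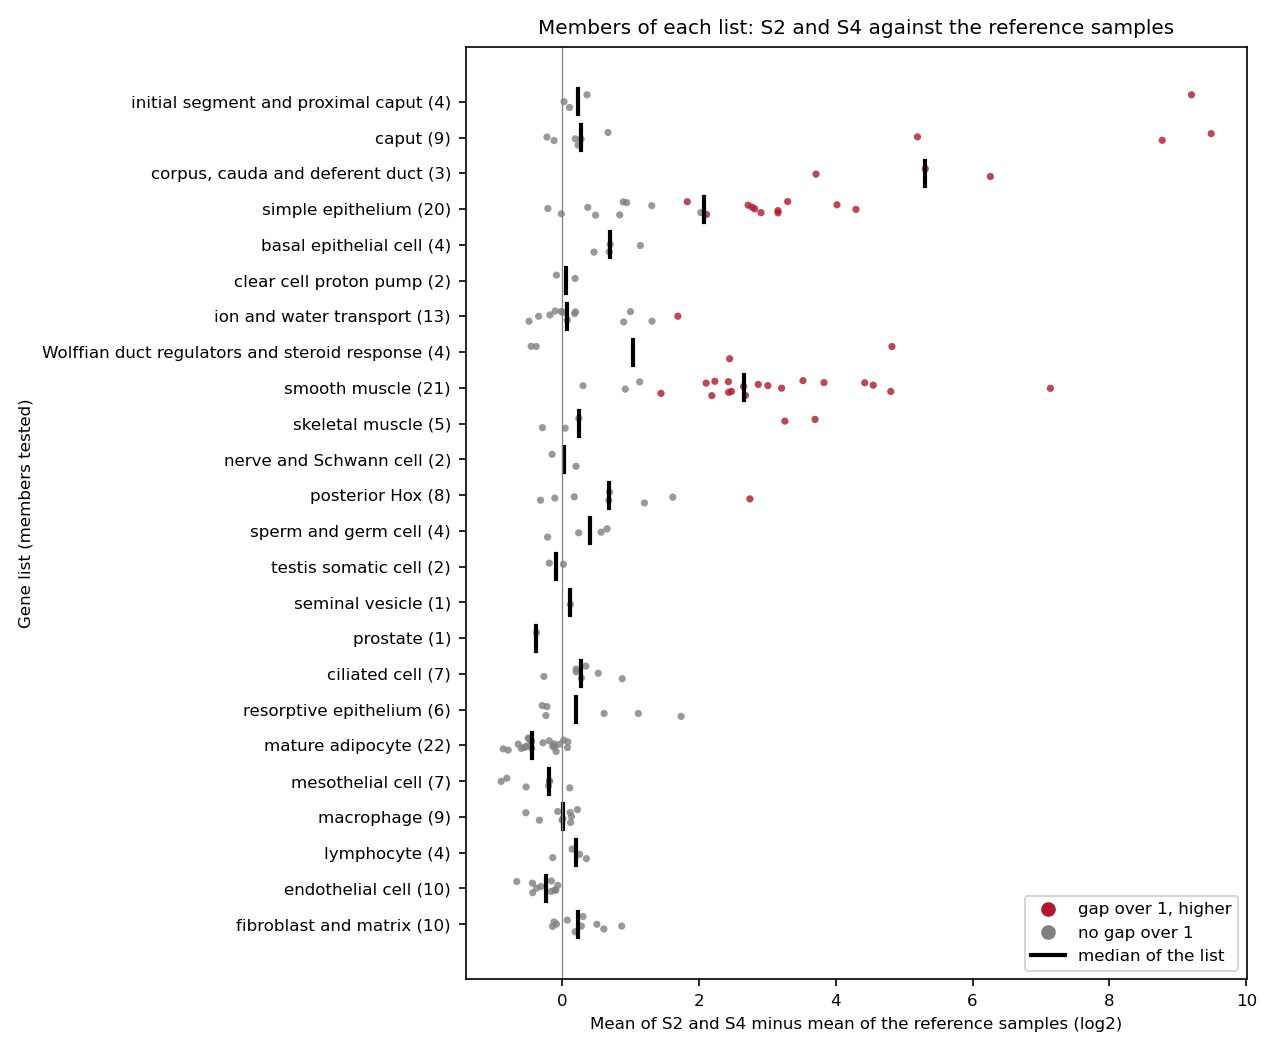
Difference between the mean of S2 and S4 and the mean of the reference samples (log2, horizontal axis) for the tested members of 24 gene lists (vertical axis, number tested in brackets). Each point is a gene, red where it was higher with a gap over 1, and the black bar is the list's median, for example 2.66 for smooth muscle, 2.07 for simple epithelium and -0.44 for mature adipocytes.

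Other male organs left few traces. Of 15 sperm and germ cell genes, 4 were tested and none had a gap over 1. No member detected in fewer than 2 samples was above 4.79 in any EWAT sample. Prm1, a protamine that packs sperm DNA, was 4.42 in S2 and 5.68 in S4 and overlapped, with 6.49 in C2 and 7.58 in S3. Of the testis somatic cell, seminal vesicle and prostate lists, none of the 2, 1 and 1 members tested was called, with median differences of -0.08, 0.12 and -0.38. The prostate value is that of Spink1, which was 7.25 in S1 and 3.74 to 4.06 in the other reference samples, and was 0.47 without S1. The testis value was 0.18 without S2, and the seminal vesicle value was -0.18 against S1 alone. The 7 ciliated cell genes tested gave none over 1, and Rsph1, a protein of motile cilia, was 5.69 and 5.58 in S2 and S4 and 9.75 and 9.56 in C3 and S3. The resorptive epithelium list, which holds Cldn2, Cdh16 and Lrp2, had no called member. Cdh16, a cadherin, was 6.12 and 5.70 in S2 and S4, 3.92 to 4.72 in the reference samples and 10.13 and 10.36 in C3 and S3.

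Further genes were named for the size of their gap or for their difference between S2 and S4. Slco2a1, the prostaglandin transporter, was 11.72 and 11.15 in S2 and S4 and 6.83 to 7.27 in the reference samples. Ptgs2, the inducible cyclooxygenase that makes the prostaglandin precursor, was 8.63 and 7.12 against 3.23 to 4.01. Ptgs2, Crygc and Anxa13 passed the detection filter only through S2 and S4. Mfsd2a, a transporter of lysophospholipids, was 10.50 in S2 and 10.84 in S4 and 4.13 to 4.50 in the reference samples, and reached 9.79 in liver. Gldc, the decarboxylase of the glycine cleavage system, was 10.45 and 9.34 against 5.12 to 5.36. Gaps of 5.50, 4.99, 4.34, 3.61 and 3.50 belonged to Ank1, which links the membrane to spectrin, the lens crystallin Crygc, the annexin Anxa13, the non-coding RNA Pantr1 and the kinesin Kif5c. Rbfox3, a splicing factor best known from neurons, was 10.40 and 9.32 in S2 and S4 and 8.05 and 7.74 in C3 and S3. Of the nerve and Schwann cell list, 2 of 9 members were tested and neither was called, with Uchl1 at a gap of 0.04.

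S2 carried more of this signal than S4. Of the 265 genes, 246 were higher in S2 than in S4, and the median of S2 minus S4 was 0.59 among them and -0.03 over all genes. The difference ran from -0.34 to 1.88. The genes most in favour of S2 were Rnase12 (1.88), Gm4956 (1.65), Rprm (1.61), Cldn4 (1.59) and Ptgs2 (1.51). By their brightest probes, those most in favour of S4 were Mfsd2a (-0.34), Shroom3 (-0.28), Defb2 (-0.25), Arhgef39 (-0.23) and Acsl4 (-0.20). Other detected Acsl4 probes ran the opposite way, at 6.07 in S2 and 5.42 in S4 and at 5.33 and 4.88. A second detected Shroom3 probe was again higher in S4, at 5.39 in S2 and 5.53 in S4. In the smooth muscle list 18 of 21 tested genes were higher in S2, with a median of 0.42, and in the simple epithelium list 17 of 20, with a median of 0.61.

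**Figure D3:**
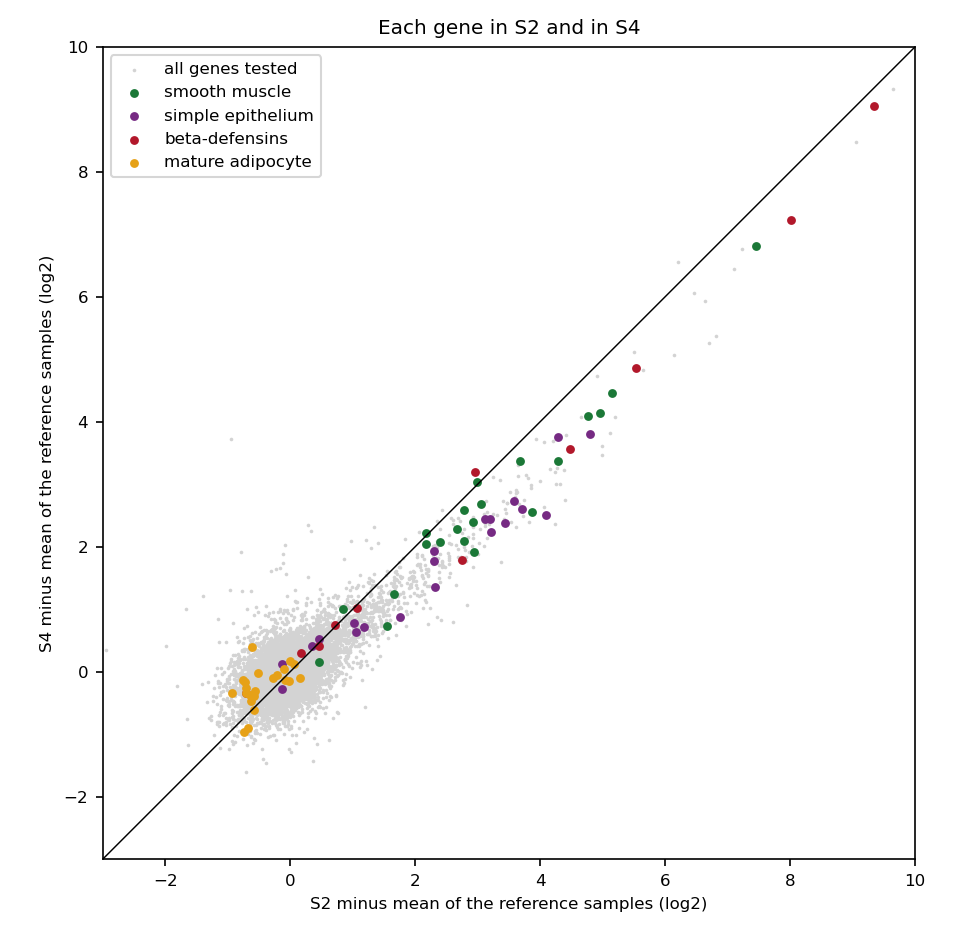
Each tested gene's value in S2 (horizontal axis) and in S4 (vertical axis), both as the log2 difference from the mean of the reference samples, with the line of equality. Grey points are all 11759 genes and coloured points are members of 4 lists; most high points lie below the line, as 246 of the 265 called genes were higher in S2.

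C3 and S3 shared a portion of these genes, as measured against the same reference samples. Of the 265, 156 were more than 1 above C3 and S3 too, and 69 were more than 1 above the reference samples in both C3 and S3. Of these 69, 9 were also more than 1 higher in C3 and S3 than in S2 and S4. Among the 9 was Lcn2, an iron-siderophore-binding lipocalin, at 8.46 and 8.28 in S2 and S4, 5.40 to 6.23 in the reference samples and 12.12 and 12.13 in C3 and S3. Spink8, Serpina1f, Fxyd4, Gata3 and P2rx1 were near the detection limit in C3 and S3, whereas Krt8 was 10.69 and 10.70 there and Cdh1 7.28 and 7.35.

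**Figure D4:**
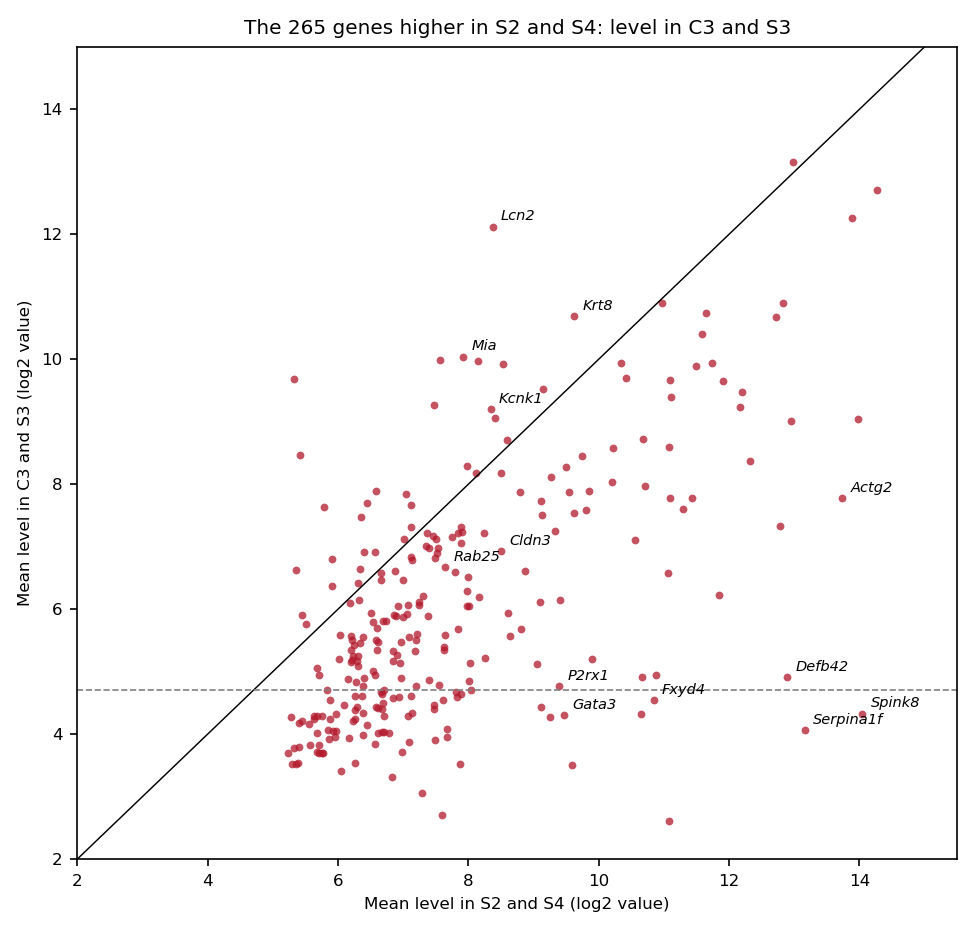
Mean level of the 265 called genes in S2 and S4 (horizontal axis) and in C3 and S3 (vertical axis), in log2 values, with the line of equality and the detection limit of 4.70 dashed. Spink8, Serpina1f and Defb42 lie at the lower right, Actg2 is intermediate in C3 and S3, and Lcn2 lies above the line.

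Fat cell genes remained at high levels in S2 and S4, which are labelled EWAT. Adipoq, which encodes adiponectin, was 14.26 and 14.22 and lay between 14.28 and 14.44 in the reference samples. Of 22 mature adipocyte genes tested, 6 were lower with any gap, against 14.4% of all genes, none was lower with a gap over 1, and the median difference was -0.44, with 19 of 22 differences below 0. Pparg, the nuclear receptor that drives fat cell differentiation, was 11.48 in S2 and 11.25 in S4 and 12.32, 12.07, 12.12 and 12.37 in C1, C2, C4 and S1. It was also 11.77 and 11.38 in C3 and S3. The gaps of Pparg, Cebpa, Plin1, Lipe, Aqp7 and Adipoq were -0.59, -0.37, -0.22, -0.20, -0.19 and -0.02 by their brightest probes. Other detected probes of Pparg had gaps of 0 and -0.02, and that of Lipe had 0. Those of Aqp7 had -0.32, 0 and 0, and that of Plin1 had -0.27. Of 10 endothelial genes, 3 were lower with any gap, against the same 14.4%, with Ptprb, a vascular phosphatase, at -0.34. No macrophage gene of 9 had a gap, and Fbln1 was the one fibroblast gene of 10 with a gap, 0.14.

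The lower genes were separated by small distances. The largest lower gap was that of Tmem237, a protein of the ciliary transition zone, at -0.96, but its other detected probes had gaps of -0.22, 0 and 0. Bbc3, a mediator of apoptosis, followed at -0.73, and Negr1, Pcdh12, Klb and Mgst2 lay between -0.71 and -0.68. Klb, the co-receptor of endocrine FGFs, was 6.62 and 6.99 in S2 and S4, 7.68 to 7.70 in the reference samples and 7.07 and 6.75 in C3 and S3. St6galnac5, Rps6ka3, Sucnr1, Pi4kb, Trim35 and Rprml had gaps between -0.68 and -0.60. These gaps too are those of the brightest probes. Other detected probes of Bbc3 and Negr1 had gaps of 0. Those of Trim35 had -0.33, 0 and 0, and that of Pi4kb had -0.27.

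The targeted gene was close to the detection limit. The one Sox6 probe detected in EWAT was 4.87 in S2 and 4.74 in S4, 5.17 in S1, 5.65 in C1, 5.69 in C2, 5.41 in C4, 5.11 in C3 and 5.32 in S3. S2 and S4 were the lowest of the 8 samples, with a gap of -0.30, and the other 4 Sox6 probes were detected in no EWAT sample. Whether the gapmer or the admixed tissue moved with this value cannot be told apart.

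Chips and groups overlapped only in part. S2 shared chip 3 with both C1 arrays and 1 array of S1, and 263 of the 265 genes were more than 1 above both samples there, largely the same arrays that chose the genes. S4 lay on chip 4, where C3 was the one other EWAT sample, so it had no reference sample on its chip. The part of the chip in these differences was not tested. Of the 265 genes, 105 were detected on none of the 6 reference arrays and 95 on all of them. A further split gave 61 that were detected in S2 and S4 and in no other EWAT sample, of 160 such genes in all. Genes detected in 3 EWAT samples that included S2 and S4 also needed S2 or S4 to pass the filter. Spink8, Fxyd4, Gata3, Tnnc2 and Wfdc10 are examples, and such genes are not counted in the 61. On liver arrays 111 of the 265 were detected on none of 14. Just inside the threshold lay Ryr2 and Spink4, both with a gap of 1.003, and just outside Ccdc136 with 0.9998 and Cpne6 with 0.9955. The arrays detected 44.6% of probes in S2 and 43.2% in S4, within the 41.5% to 45.9% of all EWAT arrays, and the number of arrays limits the precision of every value.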

How the data were processed

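RNA of liver and EWAT was hybridised to Illumina mouse bead arrays, 24 arrays on 4 chips of 6. GenomeStudio was used, per the submitters' processing notes, which give no version. Probe intensity was deposited after background subtraction, with 25.7% to 29.7% of the signals below 0 on the EWAT arrays, and the authors deposited a detection p-value beside each. The authors' log2 table was used here. Its values equal, as checked, the log2 of the shifted signal after quantile normalization over all arrays. Of 45281 probes, 34885 have 1 gene in the platform annotation, 18 several and 10378 none, and 34807 matched RefSeq (GRCm38.p6) by Entrez ID.

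Repeat arrays of a sample were averaged. A probe was used where its detection p was under 0.05 on all arrays of a sample in at least 2 EWAT samples, and a gene took its probe with the highest mean, which left 11759 of 19057 genes. The groups come from measured values, so differences and gaps are given without a test. The members, the 24 gene lists and the 9 families were chosen with earlier results of these data known, and list medians are set beside that of all genes. Named genes were the label markers, every Sox6 probe, the 25 largest higher and 12 largest lower gaps, up to 6 members per list or family with the largest gap and the undetected list members, and the 5 largest S2 minus S4 differences per direction. Genes outside the rule serve to complete a list or are marked. The calculation was tested on simulated data. Alternatives were neqc (limma 3.58.1, R 4.3.3, offset 16), a 75th percentile scaling, other detection filters, probes, arrays, reference samples, chip 3 alone, other thresholds, and leaving out each sample. Python 3.11.15 with numpy 2.4.6, pandas 2.3.3 and matplotlib 3.10.9 was used. The labels do not say more of the replicates than their numbers.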

Additional observations from a re-analysis of the deposited data

Results flagged for a closer look

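The following genes had 1 reference sample far from the other 3, a distance that chance gives in about 1 in 20 groups. They are among the many named genes, of which several would be so placed at that rate. Cd52 was 7.89 in C4 and 8.86 to 8.96 in the others, Pi4kb was 7.01 in S1 against 7.38 to 7.42, and Ly6g5c was 3.95 in C2 against 4.38 to 4.44. Krt15 was 3.69 in C2 against 4.43 to 4.49, and Arhgef39 was 3.82 in C1 against 4.65 to 4.67. Mgst2 was 9.53 in C1 against 8.90 to 8.997, and Des was 7.99 in C1 against 6.92 to 7.09. For Cd52, Ly6g5c, Krt15 and Arhgef39 the distant sample was the lowest, so it did not set the gap to S2 and S4.

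C3 and S3, which were in neither group, held a signal above the reference samples. The lower of the pair was 10.13 for Cdh16, which lay between 3.92 and 4.72 in the reference samples. It was 9.71 for Cldn2, which lay between 3.16 and 3.82, but this gene was used to form the groups, so that its difference restates the choice.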

How the results depend on the processing

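The 265 higher genes became 94 among genes detected in all 8 samples, 156 with C3 and S3 added to the reference, 484 on chip 3 alone, 99 with a gap over 2 and 1585 with any gap. Leaving out 1 sample gave 278 to 415, with 415 without S4 and 288 without S2. Under neqc the count was 285, and 256 of the 265 genes were among them. The lower count of 0 became 28 against S1 alone, 32 on chip 3 alone and 1696 with any gap, and 0 to 10 with 1 sample left out, with 10 without S4, 4 without S2 and 1 without C1. The caput median of 0.28 was 0.20 without a detection filter, 0.59 against S1 alone, 0.17 with C3 and S3 added, 0.23 to 0.37 with 1 sample left out, and reversed to -0.22 where detection in all 8 samples left Mfge8 alone. The simple epithelium median of 2.07 was 2.29 under the 75th percentile, 2.42 with detection in all 8, 1.80 with the mean of probes, 1.69 with C3 and S3 added, 2.53 on chip 3 and 1.85 to 2.31 with 1 sample left out. The smooth muscle median of 2.66 was 3.01 with detection in all 8 and 2.39 to 2.92 with 1 sample left out. The adipocyte median of -0.44 was -0.57 under the 75th percentile, -0.20 against S1 alone, -0.21 with C3 and S3 added and -0.57 to -0.16 with 1 sample left out. Signs reversed for ion and water transport (-0.045 under the 75th percentile, -0.16 with detection in all 8, -0.17 with C3 and S3 added), Wolffian duct regulators (-0.45) and posterior Hox genes (-0.10) with detection in all 8, skeletal muscle (-0.21) on chip 3 and ciliated cells (-0.17) with C3 and S3 added. Medians near 0 or resting on few genes also changed sign, among them resorptive epithelium (0.20 to -0.88 with C3 and S3 added), prostate (-0.38 to 0.47 without S1), clear cells (0.06 to -0.23 without S4) and testis (-0.08 to 0.18 without S2). In all, 15 of the 24 list medians changed sign under some setting. The causes were not tested beyond the fewer genes or samples of each setting. The 75th percentile scaling moved the median of all genes to -0.13, with 1206 genes higher and 2517 lower by any gap. Of the 53 named genes with a higher gap over 1, 41 stayed over 1 in every setting that gave a value. These named genes had 23 second detected probes, of which 14 had a gap over 1 and 19 a gap above 0. No paired analysis was possible because the groups rest on measured values and no test was made. Values near the detection limit bound a level and do not measure it.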
